A study of Caenorhabditis elegans with 4 samples.

Results

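The histone genes of 22-day-old wild-type worms were compared between GNC-treated and control animals. The members were selected by their gene name alone, as every gene of the deposited table whose name begins with his, hil or htz followed by a number, and no measured value entered that choice. The family as such was taken up with earlier results of the same comparison known, so every count of its members is given here as a description. In total, 81 of the 46766 genes in the table were histone genes. By their product names, 64 of them encode core histones, with 17 genes for H2A, 16 for H2B, 15 for H3 and 16 for H4. A further 9 encode linker histones of the H1 type (hil-1 to hil-8 and his-24), 5 encode H3.3-type proteins (his-69, his-70, his-71, his-72 and his-74) and 1, htz-1, encodes the H2A variant H2A.Z. The product names of his-39 and his-73 give no class. RNA came from whole worms of the strain N2, the standard laboratory wild type of C. elegans, in synchronized populations kept in liquid medium with E. coli OP50 as food. The treated group received GNC (Gengnianchun), a Chinese herbal formula given as water extracts, at 3.94 mg/mL, and the control group received water. Each group had 2 RNA-seq libraries, 1 dose and 1 age, and whether the libraries of a group came from separate cultures is not given in the sources used here, so the p-values measure the spread between these libraries only.

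Histones are the proteins around which DNA is wrapped. The core histones H2A, H2B, H3 and H4 form the nucleosome, and linker histone H1 binds the DNA between nucleosomes. Most core histone genes are present in many near-identical copies, are transcribed when DNA is replicated and give mRNAs that end in a stem-loop in place of a poly(A) tail. Variant histones such as H3.3 and H2A.Z are made and placed into chromatin outside DNA replication as well. In the adult worm the somatic cells no longer divide, whereas germ cells and the embryos carried by hermaphrodites do.

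The 4 libraries held 18639631 to 21753657 counted fragments each. Histone genes took 0.275% and 0.272% of the counts of the control libraries, and 0.235% and 0.230% of those of the treated ones. Levels of a gene in a library are given as CPM, its count relative to the TMM-scaled size of that library. Levels are compared between genes only as FPKM, the authors' value of fragments per kilobase, whose length does not follow the full span of a gene. A gene fell or rose here when its FDR was under 0.05 in edgeR's quasi-likelihood test, adjusted over the 16341 genes that passed a filter on low counts, and it was called when the change was also at least 2-fold. Of the 81 histone genes, 54 passed that filter. All 9 linker genes, all 5 H3.3 genes and htz-1 passed, as did his-73, but only 38 of the 64 core genes. Another 17 core genes were at 0 counts in every library, where a count of 0 allows up to 3 counts by counting error alone, and the remaining 10 genes (his-11, his-15, his-16, his-30, his-33, his-38, his-39, his-58, his-65 and his-66) had 0 to 17 counts in a library. Reads that match several copies may have been dropped or shared out, and how this was handled is not given in the sources used here. The count of a single core copy is therefore uncertain. Whether the libraries were made from poly(A) RNA is likewise not given.

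GNC-treated worms had less histone mRNA of most kinds. Among the 54 tested histone genes, 34 fell and 3 rose, while 17 did not pass the test. The shares among all genes tested were 20.5% lower and 19.8% higher. With the 2-fold threshold, 18 histone genes were called lower, where 2.23% of all genes tested were, and 0 were called higher, where 4.97% of all genes were (7.2% in both directions together). Without adjustment, at p under 0.05 and at least 2-fold, 19 were lower and 0 higher, and DESeq2 called 11 lower and 0 higher and gave no adjusted p for 4 of the 18 (his-8, his-18, his-29 and his-34). In 41 of the 54 genes both GNC libraries lay below both control libraries, and in 4 both lay above, against 34.5% and 36.5% of all genes tested. The median log2 fold change was -0.69 over the tested histone genes and 0.02 over all genes tested. Since genes with few counts pass the filter through the group where they are higher, the tested members do not stand for all members. The called genes his-1, his-2, his-8, his-18, his-29, his-34 and hil-6 had under 10 counts in a GNC library. They passed the filter only through the control group. With at least 10 counts in every library, 11 histone genes were called lower. Of the 18 called genes, 12 remained called without control replicate 1, 15 without control replicate 2, 12 without GNC replicate 1 and 13 without GNC replicate 2, and all 18 kept a negative value in each case. The calls of hil-7 and his-18 held in none of these 4 sets. Whether worms had fewer cells that express these genes or less of their RNA in each cell cannot be told apart in RNA from whole animals.

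**Figure D1:**
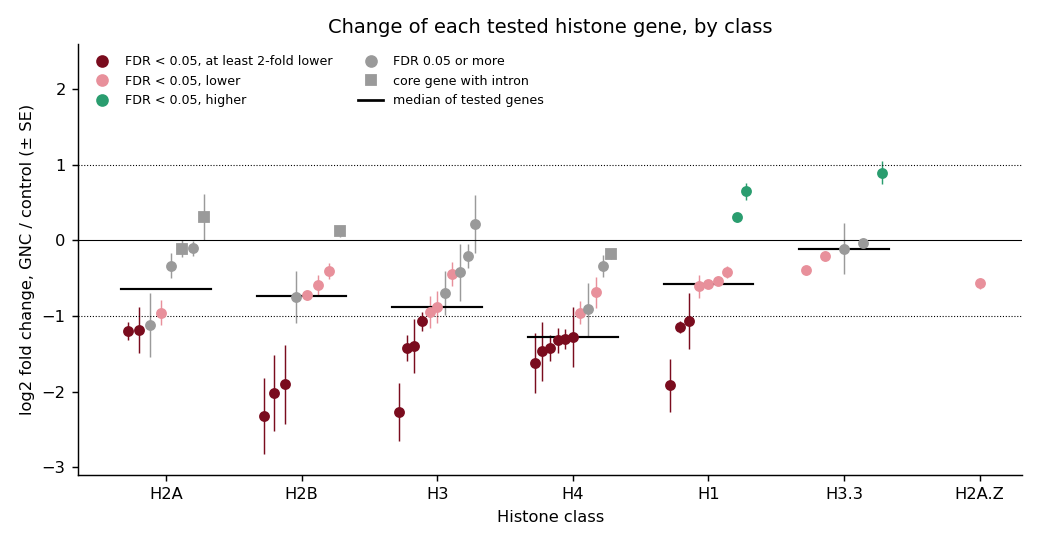
Log2 fold change (GNC over control, with its standard error) of each tested histone gene, by class, with colour for the test result and squares for core genes with an intron. H4 has the lowest median, at -1.28, where the H4 genes his-1 and his-18 passed the filter only through the control group. The genes that rose are the linker genes hil-1 and hil-8 and the H3.3-type gene his-70.

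H4, the core histone that pairs with H3, had the lowest median of the classes. All 11 tested H4 genes had a negative log2 fold change, with a median of -1.28, and 8 fell, of which 6 were called. Among the copies without an intron, his-60 and his-46 had the most counts. The level of his-46 (WBGene00001920, chromosome IV, 11326018 to 11326329) was 17.4 and 14.6 CPM in controls and 6.44 and 6.48 CPM under GNC. The groups did not overlap, and its log2 fold change came to -1.31 (standard error 0.13, edgeR adjusted p = 0.000103). For his-60 (chromosome IV, 7487567 to 7488010) the level was 19.8 and 14.8 CPM in control and 8.30 and 9.56 CPM in treated worms. This was close to the 2-fold threshold but did not reach it, with a log2 fold change of -0.95 (standard error 0.15, edgeR adjusted p = 0.00107). The level of his-64 was 9.85 and 7.88 CPM in control and 3.28 and 3.31 CPM with GNC, a log2 fold change of -1.42. Less abundant copies had the lowest values. The count of his-31 was 44 and 25 in controls and 15 and 11 under GNC (log2 fold change -1.62), and that of his-1 was 31 and 24 against 15 and 8 (log2 fold change -1.47). Neither held at an FDR under 0.05 without control replicate 1, and his-1 did not hold without GNC replicate 2.

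H3, whose tail carries many of the marks that distinguish active from silent chromatin, was represented by 11 tested genes. Of these, 7 fell, 4 of them called, and 4 did not pass the test, and the median log2 fold change was -0.88. Across all genes tested, 20.5% fell and 2.23% were called lower. The level of his-45 (WBGene00001919, chromosome IV, 11326557 to 11327220), the next gene to his-46, was 11.9 CPM in both control libraries and 5.59 and 5.76 CPM under GNC. Its log2 fold change was -1.07 (standard error 0.13, edgeR adjusted p = 0.000231). The level of his-32 was 9.13 and 8.14 CPM in control and 2.97 and 3.46 CPM with GNC, a log2 fold change of -1.43. The largest change among the tested H3 genes was that of the rare copy his-2, with 29 and 30 counts in controls and 6 and 8 under GNC (log2 fold change -2.27, standard error 0.38, edgeR adjusted p = 0.00132). This copy passed the filter only through the control group, where it was higher. The rare copy his-17 had 48 and 39 counts in control against 13 and 25 with GNC (log2 fold change -1.40), a call that did not hold without GNC replicate 1. The most abundant H3 copy, his-25 on chromosome II, did not pass the test. It had 17.99 and 13.3 CPM in control and 14.7 and 12.2 CPM in treated worms, so the groups overlapped (log2 fold change -0.21, edgeR adjusted p = 0.320). Without control replicate 2 its value was -0.42, with an edgeR adjusted p of 0.0339. Between these, his-59 was at 6.99 and 7.57 CPM in control and 5.73 and 4.95 CPM with GNC (log2 fold change -0.45, edgeR adjusted p = 0.0449), which did not hold with upper quartile normalization, DESeq2 or limma on FPKM, nor without control replicate 2 or either GNC library. The H3 gene with the highest value was his-42, at 0.22 with overlapping groups.

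H2A and H2B form the dimers that flank the H3 and H4 tetramer in the nucleosome. Of the 8 tested H2A genes 3 fell, 2 of them called, and of the 8 tested H2B genes 6 fell, 3 of them called. The medians were -0.64 and -0.73. Across all genes tested, 20.5% fell and 2.23% were called lower. The H2A gene his-47 (WBGene00001921, chromosome IV, 11323885 to 11324470) was at 36.3 and 42.1 CPM in controls and at 15.2 and 19.1 CPM under GNC. Both GNC libraries were low, and the log2 fold change was -1.19 (standard error 0.12, edgeR adjusted p = 9.33e-05). Its divergent neighbour, the H2B gene his-48 (WBGene00001922, chromosome IV, 11324719 to 11325222), was at 74.6 and 78.5 CPM in control and at 47.5 and 45.2 CPM with GNC. It fell by less than 2-fold, with a log2 fold change of -0.72 (standard error 0.07, edgeR adjusted p = 6.21e-05). The H2B gene his-62 was at 15.4 and 14.6 CPM against 11.4 and 11.2 CPM (log2 fold change -0.41), which was no longer under the threshold with DESeq2, with library totals or without GNC replicate 2. By contrast, the H2A gene his-68 on chromosome I had 20.5 and 22.2 CPM in control and 20.6 and 19.1 CPM with GNC, and did not pass the test (log2 fold change -0.11, edgeR adjusted p = 0.426). The lowest H2B values were those of rare copies. The count of his-8 was 17 and 14 in control and 3 and 4 with GNC (log2 fold change -2.32, standard error 0.51). For his-34 it was 18 and 14 against 6 and 3 (log2 fold change -2.02), and for his-29 it was 24 and 12 against 6 and 5 (log2 fold change -1.90). The calls of these copies rest on few counts, and each copy passed the filter only through the control group. The call of his-8 did not hold without GNC replicate 1, that of his-34 without control replicate 1 or GNC replicate 2, and that of his-29 held only without control replicate 2 among the 4 sets that left out 1 library. The other called core genes, his-56, his-18 and his-3, had log2 fold changes of -1.32 to -1.19. Of these, his-18 had 13 and 7 counts with GNC and passed the filter only through the control group.

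Because reads of near-identical copies can be assigned to different members, the counts were also summed over each core class. Over all members of a class, the H4 sum was 164 and 146 CPM in control and 112 and 106 CPM with GNC (ratio 0.703), and the H2B sum was 195 and 186 CPM against 163 and 153 CPM (ratio 0.830). The H2A sum was 286 and 314 CPM against 280 and 227 CPM (ratio 0.845). In each of these classes both GNC libraries lay below both control libraries, though the H2A sums were closest, at 286 and 280 CPM. The log2 ratio of the H2A sums was -0.24, and it was -0.40 without GNC replicate 1 and -0.10 without GNC replicate 2. The annotation gives more than 1 exon for 4 core genes, his-35 (H2A), his-41 (H2B), his-37 (H4) and his-57 (H2A), and a single exon for the other 60. This division of the core genes was made after their values had been seen. The sums of the single-exon genes alone, which do depend on how reads were divided between them and the genes with an intron, also had both GNC libraries below both control libraries in each class. Their H4 sum was 77.8 and 62.8 CPM in control and 33.5 and 34.1 CPM in GNC-treated worms, a ratio of 0.481. The H3 sum, which covers all H3 genes, was 64.4 and 57.5 CPM against 37.4 and 36.8 CPM, a ratio of 0.609. For H2A it was 77.1 and 89.0 CPM against 50.9 and 52.5 CPM (ratio 0.623), and for H2B 106 and 107 CPM against 67.9 and 65.1 CPM (ratio 0.626). Over all 60 genes the sum was 321 ± 6.26 CPM in control and 189 ± 0.856 CPM with GNC (mean ± SD, n = 2 for each), a ratio of 0.590. With 2 libraries against 2, an exact permutation test of a single sum cannot reach the usual threshold, and none is given.

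Of the 4 core genes with an intron, none passed the test in edgeR (0 of 4, with 1 at an unadjusted p under 0.05 and 0 in DESeq2), against 24 of the 34 tested single-exon genes. Of all genes tested, 20.5% fell and 19.8% rose, so most genes did not pass. The division was made after the values were seen, and some rare single-exon copies, such as his-8, passed the filter only through the control group. These counts are therefore a description only. The genes his-35, his-41 and his-37 lie within 2.96 kb of each other on chromosome V (9544651 to 9547609) and were the most abundant core genes, taking 75.1% of the H2A, 50.4% of the H2B and 60.6% of the H4 counts. The level of his-35 (WBGene00001909) was 208 and 223 CPM in control and 227 and 173 CPM with GNC. The GNC libraries lay on either side of the control libraries, and the log2 fold change was -0.11 (standard error 0.11, edgeR adjusted p = 0.464). Without GNC replicate 1 the value was -0.32, at an edgeR adjusted p of 0.00364. The level of his-41 (WBGene00001915) was 89.5 and 78.8 CPM against 95.2 and 87.8 CPM (log2 fold change 0.12, edgeR adjusted p = 0.226), and without control replicate 1 its value was 0.22 (edgeR adjusted p = 0.0489). With library totals it also passed (edgeR adjusted p = 0.0458). That of his-37 (WBGene00001911) was 86.0 and 83.7 CPM against 78.8 and 71.6 CPM, with no overlap between the groups (log2 fold change -0.17, edgeR adjusted p = 0.0611). It did pass with the replicate block (edgeR adjusted p = 0.0354), with scaling to the same median fold change (0.0406), with equal library medians (0.00356) and without GNC replicate 1 (0.0334). An annotated gene on the same strand overlaps his-41 and nstp-10 on the opposite strand overlaps his-37, and the counting is not stated to use strand. The rarer his-57, which overlaps klp-12, had 23 and 32 counts in control against 34 and 45 with GNC (log2 fold change 0.31, edgeR adjusted p = 0.448). The difference between single-exon genes and these genes can also be read as a ratio within each library, which no scaling between libraries can change. The count of all single-exon H4 genes was 0.905 and 0.749 of the count of his-37 in controls and 0.425 and 0.477 of it under GNC. For H2B relative to his-41 the ratio was 1.18 and 1.36 in control and 0.713 and 0.741 with GNC, and for H2A relative to his-35 it was 0.371 and 0.399 against 0.224 and 0.304. Single-exon H3 genes, which have no such partner, were set against the H3.3 gene his-72, at 0.139 and 0.113 in control and 0.0883 and 0.0875 with GNC. In all 4 ratios both GNC libraries lay below both control libraries. For the level of a single gene this was so in 34.5% of all genes tested, and the reverse in 36.5%. The H2A, H2B and H4 ratios rest on the division made after the values were seen. They also depend on how reads were divided between near-identical copies.

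**Figure D2:**
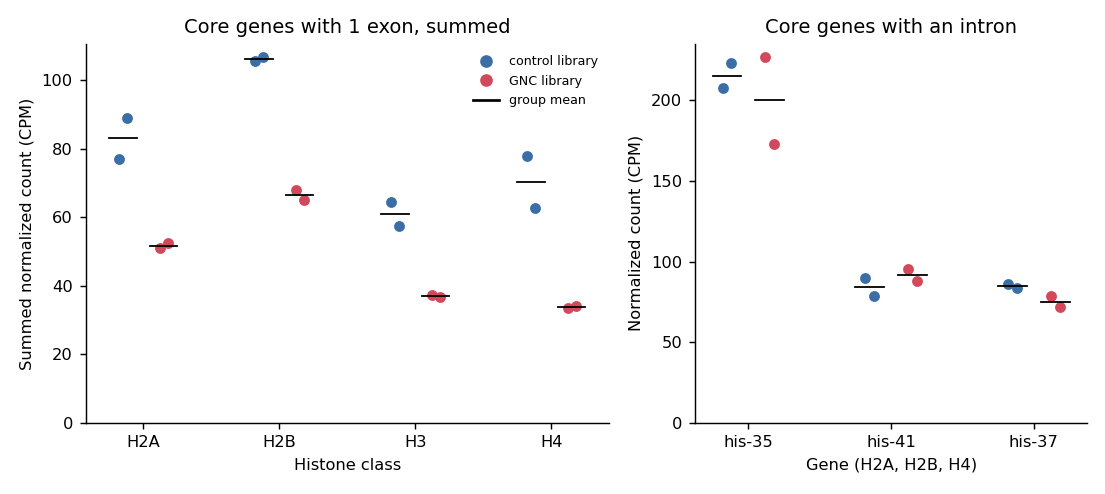
Summed CPM of the single-exon core genes of each class (left) and CPM of the 3 clustered core genes with an intron (right), with a point for each library and a bar for the mean of the group. The H4 sum fell from 70.3 to 33.8 CPM on average, while his-35 and his-41 overlapped between groups.

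Most histone genes lie in clusters. With neighbours joined across at most 20 kb, 67 of the 81 genes fell into 13 clusters of at least 2 genes. Within these, 31 neighbouring pairs were transcribed away from each other across a gap of 196 to 317 bases (median 253). Of these pairs, 14 joined H3 with H4, 16 joined H2A with H2B, and 1 (his-67 and his-68) joined H4 with H2A. Both partners were tested in 16 pairs. In 15 of them both had a negative log2 fold change, and in 9 both fell. The exception was the pair of his-35 and his-41. In the 9 pairs where both fell, his-1, his-2 and his-18 passed the filter only through the control group. Among the 9 H3 and H4 pairs with both partners tested, the H4 gene had the lower value in 7, by a median of 0.22 on the log2 scale over the 9 pairs (H4 minus H3, -0.22).

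The clusters differed in size of change. The cluster on chromosome IV from his-29 to his-34 (8331044 to 8336340) had 260 and 214 counts in controls and 99 and 95 under GNC. Its log2 ratio was -1.51 after scaling, and all 4 of its tested genes were called. Among these, his-29 (6 and 5 counts with GNC) and his-34 (6 and 3) passed the filter only through the control group. The other 2 genes, his-30 and his-33, were not tested. The cluster on chromosome V from his-4 to his-1 (16040091 to 16042831) had 124 and 118 counts against 57 and 55 (log2 ratio -1.33). Its genes his-2 and his-1 passed the filter only through the control group. The cluster on chromosome IV from his-47 to his-57 (11323885 to 11341495) had 2860 and 3122 counts in control against 1866 and 1787 with GNC (log2 ratio -0.93), with 6 of 7 tested genes lower. The 13 genes on chromosome II from his-16 to his-42 (13817759 to 13828697) had 819 and 753 counts against 747 and 622 (log2 ratio -0.42), and 2 of their 5 tested genes fell, his-43 and his-44, by less than 2-fold. The 17 core genes listed at 0 in all libraries belong to 3 clusters: 6 of 6 genes of the cluster from his-50 to his-53 and 6 of 8 genes of that from his-28 to his-18, both on chromosome V, and 5 of the 13 genes on chromosome II. Over all genes tested, 20.5% fell and 2.23% were called lower. Differences between clusters were not tested.

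**Figure D3:**
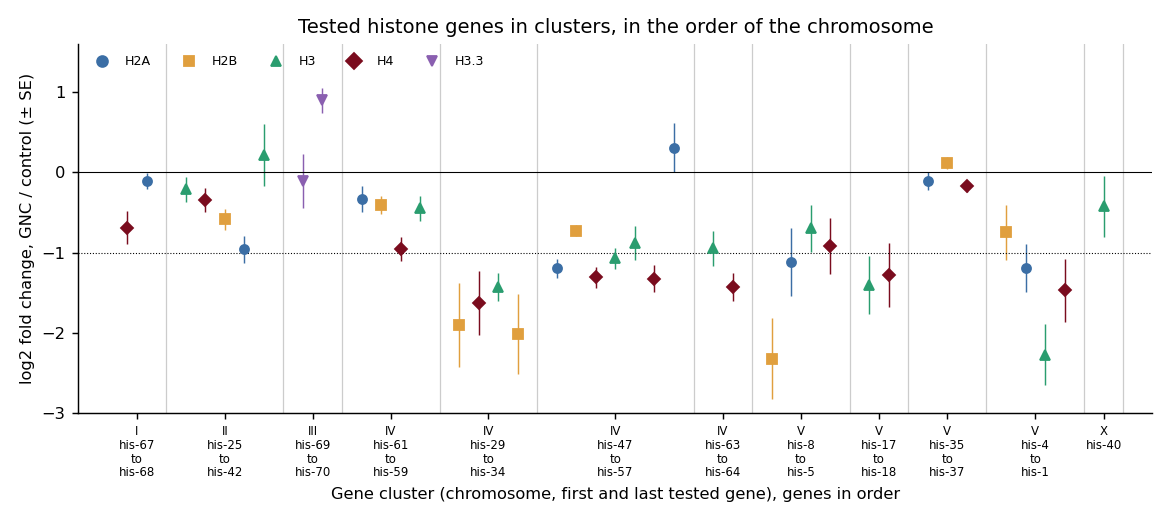
Log2 fold change (GNC over control, with its standard error) of the tested genes of each cluster, in chromosomal order, with a symbol for each class. The cluster of his-35, his-41 and his-37 lies near 0, at 0.12 to -0.17. The 4 tested genes of the cluster from his-29 to his-34 lie at -1.43 and below, where his-29 and his-34 passed the filter only through the control group.

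Of the 9 tested linker histone genes, 7 fell, 3 of them called, and 2 rose. Over all genes tested, 20.5% fell, 2.23% were called lower and 19.8% rose. The 2 of 9 that rose are thus near the share of all genes. The most marked change of an abundant gene was in his-24 (WBGene00001898, chromosome X, 14490107 to 14491111), which encodes H1.1. Its level was 83.5 and 73.1 CPM in controls and 34.7 and 36.3 CPM under GNC. Both GNC libraries were low, with a log2 fold change of -1.14 (standard error 0.08, edgeR adjusted p = 2.14e-05). Annotated noncoding RNAs lie on the opposite strand within his-24. The rare hil-6, a putative H1.6, had 35 and 34 counts in control against 9 and 12 with GNC (log2 fold change -1.92, standard error 0.35, edgeR adjusted p = 0.00196). It passed the filter only through the control group. The rare hil-7 had 25 and 22 counts against 16 and 10 (log2 fold change -1.07, edgeR adjusted p = 0.0412), and its call was lost when any 1 of the 4 libraries was left out, with upper quartile normalization and with DESeq2.

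The genes of H1.2 to H1.5 fell by less than 2-fold. The level of hil-5 (H1.5) was 182 and 188 CPM in control and 122 and 126 CPM with GNC, a log2 fold change of -0.58 (standard error 0.06). That of hil-4 (H1.4) was 199 and 214 CPM against 140 and 147 CPM (log2 fold change -0.53), and that of hil-3 (H1.3) was 46.0 and 41.9 CPM against 32.8 CPM in both GNC libraries (log2 fold change -0.42). In hil-2 (H1.2) the control libraries stood apart from each other, at 140 and 91.0 CPM, with 76.4 and 75.1 CPM with GNC. Its log2 fold change was -0.61 (edgeR adjusted p = 0.0106) and became -0.26 without control replicate 1 (edgeR adjusted p = 0.0162). It was not under the threshold with DESeq2 (adjusted p = 0.131), with limma on FPKM (0.201) or without a filter (edgeR, 0.228). The 2 linker genes that rose were hil-1 and hil-8. The H1.X gene hil-1 (WBGene00001852, chromosome V, 14949777 to 14952792) was at 200 and 213 CPM in control and at 261 and 249 CPM with GNC. It was higher in both GNC libraries, with a log2 fold change of 0.31 (standard error 0.06, edgeR adjusted p = 0.00314), and it stayed higher under all 5 other scalings of the libraries, at 0.17 to 0.44, whereas without a filter the edgeR adjusted p was 0.0582. The H1-like gene hil-8 (WBGene00001859) was at 14.6 and 12.3 CPM in control and at 21.2 and 21.0 CPM with GNC (log2 fold change 0.65, standard error 0.11, edgeR adjusted p = 0.00163). Per kilobase, hil-1 had the highest level of the linker genes in both groups, with a mean of 220 FPKM in control and 293 FPKM with GNC, followed in control by hil-5 at 206 and hil-4 at 204 FPKM.

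**Figure D4:**
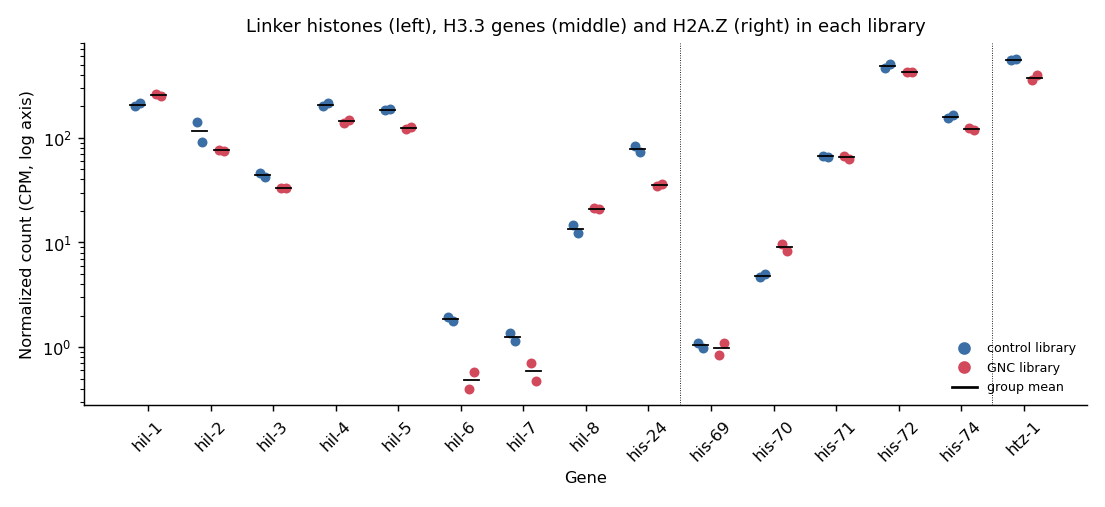
CPM of the linker histone genes, the H3.3-type genes and htz-1 in each of the 4 libraries on a log axis, with a bar for the mean of the group. Both GNC libraries lie above both control libraries in hil-1, hil-8 and his-70, and below them in his-24, at 34.7 and 36.3 against 83.5 and 73.1 CPM.

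Of the 5 H3.3-type genes, 2 fell, 1 rose and 2 did not pass the test, and the median log2 fold change was -0.11. Over all genes tested, 20.5% fell and 19.8% rose, so the 1 of 5 that rose is near that share. The most abundant histone gene per kilobase was his-72 (WBGene00001946, chromosome III, 12367474 to 12369050), with a mean of 733 FPKM in control and 684 FPKM with GNC. It had 462 and 510 CPM in controls and 424 and 421 CPM under GNC, a log2 fold change of -0.20 (edgeR adjusted p = 0.0376), which was no longer under 0.05 with upper quartile normalization, library totals or limma on FPKM, nor without control replicate 2 or either GNC library. For his-71, which encodes H3.3 as well, the levels were 66.4 and 66.1 CPM against 67.7 and 62.2 CPM (log2 fold change -0.03, standard error 0.07), and its sign changed with the scaling of the libraries. The level of his-74 was 153 and 165 CPM in control and 123 and 118 CPM with GNC (log2 fold change -0.39, edgeR adjusted p = 0.000836). On chromosome III, his-69 and his-70 are neighbours on the same strand. The level of his-70 (WBGene00001944, 4059715 to 4060119) was 4.68 and 4.96 CPM in control and 9.63 and 8.31 CPM with GNC, and both GNC libraries were high. Its log2 fold change was 0.90 (standard error 0.15, edgeR adjusted p = 0.00147), the highest among the tested histone genes. The level of his-69 was 1.10 and 0.992 CPM against 0.843 and 1.10 CPM, with overlapping groups (log2 fold change -0.11, standard error 0.34). The difference between these 2 genes was not tested.

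H2A.Z, a variant placed at the start of many genes and required for worm development, is encoded by htz-1 (WBGene00019947, chromosome IV, 4446002 to 4447006). Its level was 552 and 563 CPM in control and 359 and 393 CPM in GNC-treated worms, a log2 fold change of -0.57 (standard error 0.07, edgeR adjusted p = 0.000211), and both GNC libraries were low. The gene his-73, whose class the product name does not give and which overlaps another gene on the same strand, had 96 and 99 counts in control against 133 and 115 with GNC (log2 fold change 0.13, edgeR adjusted p = 0.554). Summed over all members, the 64 core genes were at 706 ± 4.15 CPM in control and 558 ± 49.2 CPM with GNC (mean ± SD, n = 2 for each), a ratio of 0.789. The H1 genes were at 853 ± 23.1 and 689 ± 0.559 CPM (ratio 0.808), and the H3.3 genes were at 717 ± 41.9 and 618 ± 10.2 CPM (ratio 0.862).

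Genes that act on histones and genes of DNA replication were taken as the surrounding pathway. Of the 17 genes listed for histone handling, 15 were found under their symbols and tested (hira-1 and spt-16 were not). Of these, 11 fell, 1 rose and 3 did not pass, and the median log2 fold change was -0.31. Among all genes tested, 20.5% fell and 19.8% rose, with a median of 0.02. The gene cdl-1 encodes the protein that binds the stem-loop of histone mRNA. It had 5306 and 5453 counts in controls and 3815 and 3963 under GNC (log2 fold change -0.68, standard error 0.07, edgeR adjusted p = 8.85e-05). The histone-binding chaperone genes rba-1 and lin-53 had log2 fold changes of -0.62 and -0.54, and those of the chaperone ASF1, asfl-1 and unc-85, of -0.48 and -0.40. The nucleosome assembly gene nap-1 was at -0.77, with control libraries of 12827 and 20265 counts, which was called lower without control replicate 1, and the centromeric H3 gene hcp-3 was at -0.25. The gene that rose was htas-1, which encodes an H2A variant of sperm, with 154 and 164 counts against 264 and 263 (log2 fold change 0.51, edgeR adjusted p = 0.00795). The FACT genes hmg-3 and hmg-4 and the ATRX gene xnp-1 had values of 0.06, -0.10 and 1.1e-05 on the log2 scale.

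The S-phase genes, which act in DNA replication, were lower in the same libraries. Of the 25 listed, all were tested, 19 fell, 0 rose and 6 did not pass, and the median log2 fold change was -0.49. The shares among all genes tested were 20.5% lower and 19.8% higher. No gene of either list was called (0 lower and 0 higher in edgeR, and 0 at least 2-fold at an unadjusted p under 0.05 or in DESeq2), although rnr-2 was called lower without GNC replicate 2. Among all genes tested, 2.23% were called lower and 4.97% higher, so 0 calls in lists of this size is near those shares. The ribonucleotide reductase gene rnr-2 had 6451 and 6898 counts in control against 3982 and 4040 with GNC (log2 fold change -0.95, standard error 0.06). The dUTPase gene dut-1 was at -0.86, the sliding clamp gene pcn-1 at -0.78, and the helicase genes mcm-4 and mcm-5 at -0.80 and -0.75. The primase gene pri-1 and the kinase gene cdk-2 did not pass the test, at 0.09 and 0.10.

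**Figure D5:**
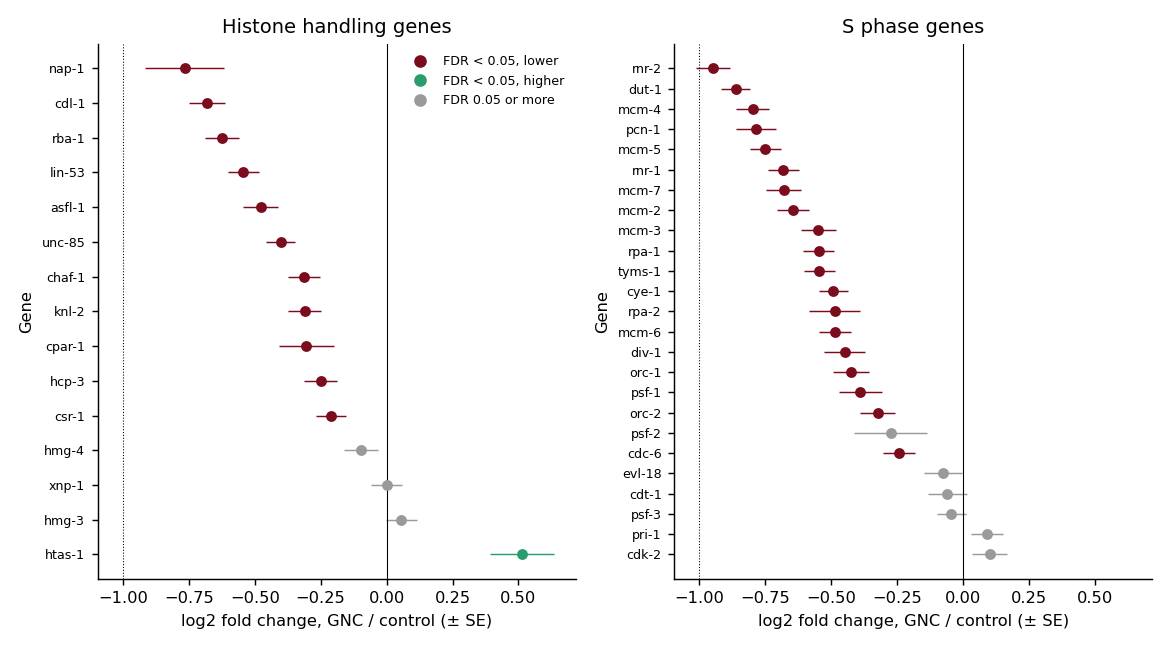
Log2 fold change (GNC over control, with its standard error) of each tested gene of the histone handling list (left) and the S phase list (right), ordered by value, with colour for the test result. The lowest genes are nap-1 at -0.77 and rnr-2 at -0.95, and htas-1 is the gene that rose, at 0.51.

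Marker genes of the cell types that a culture of whole worms can hold were compared too, and the lists differed in how many genes fell or rose. Among all genes tested, 20.5% fell and 19.8% rose, and the count of each list below stands beside these shares. Of 13 markers of the early embryo, 9 were tested, 2 fell (nos-2 and sdz-28) and 7 did not pass, which is near the share of all genes. Their summed level was 64.7 and 58.7 CPM in control and 39.9 and 37.3 CPM with GNC, with nos-2 alone at a mean of 43.1 and 26.4 CPM, and med-1 was at 0 in 1 control library and sdz-31 in 1 GNC library. Of 11 oocyte markers 9 fell and 2 rose, with a sum of 3727 and 4285 CPM against 4363 and 4711 CPM, where the eggshell genes perm-2 and perm-4 took most of the counts. Of 9 germ line markers 6 fell and 1 rose (2774 and 2750 CPM against 2295 and 2377 CPM), and of 13 sperm markers 7 rose and 0 fell (303 and 310 CPM against 408 and 430 CPM). All 5 vitellogenin genes of the adult intestine fell, with sums of 2862 and 3211 CPM against 2105 and 2006 CPM. No marker was at 0 in all 4 libraries. The part of these shifts in the histone results was not tested.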

How the data were processed

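RNA-seq was made from 4 libraries of 22-day-old N2 worms (2 control, 2 GNC). The deposited table holds the authors' unnormalized counts and their FPKM for each gene. The submitters' processing notes name CASAVA 1.8, TopHat2 2.1.0, Cuffdiff and the build WBcel235, and no roles. Strandedness, poly(A) selection and the handling of reads matching several genes are not given in the sources used here. The counts were filtered (filterByExpr), scaled by TMM and tested with the quasi-likelihood method of edgeR 4.0.16 (R 4.3.3), with group as the only term and Benjamini-Hochberg adjustment over all 16341 genes tested. The standard error is the size of the log2 fold change divided by the square root of F. The common biological coefficient of variation was 6.67%. The procedure was checked on simulated counts. Classes come from product names in the table. Exons, strands and overlaps come from the Ensembl WBcel235 annotation, which held all 81 genes, 36 of them at identical positions. Coordinates are those of the deposited table.

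Named were all linker, H3.3 and H2A.Z genes with a mean of at least 10 counts, the 3 most abundant and the 2 extreme genes of each core class, and the 10 largest calls. The members and lists were chosen with earlier results of these data known. The alternatives were upper quartile, library totals and same-median scaling, DESeq2 1.42.0, limma 3.58.1 on log2(FPKM + 0.1) for genes with at least 1 FPKM in 2 libraries, no filter, at least 10 counts in every library, a replicate block and each library left out. Equal library medians, expression-dependent offsets and the single-exon sums were added after seeing the data.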

Additional observations from a re-analysis of the deposited data

How the results depend on the processing

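The medians and sums of core, single-exon core, H2A, H2B, H3, H4, H1 and H3.3 genes stayed below 0 under each alternative run. Those of the genes with an intron, of H2A.Z and of the single-exon H2A, H2B and H4 genes were not rerun. No histone gene (0) was called higher under any alternative that kept the 2-fold threshold. The count of genes called lower, 18, was 11 without a filter, with at least 10 counts in every library and with DESeq2, 12 with limma on FPKM, 16 with upper quartile scaling and with library totals, 24 with equal library medians and with expression-dependent offsets, and 14 to 18 with 1 library left out. The 11 were among the 18 each time. Without the fold threshold 34 were lower and 3 higher. At an FDR under 0.05 the 34 lower genes were 17 without a filter, 23 with DESeq2, 27 with limma on FPKM and 28 with at least 10 counts in every library. They were 40 with equal library medians and 38 with offsets. The 3 higher genes were 2 without a filter and 3 to 4 with the other alternatives that kept all 4 libraries. Libraries of the same number were not paired by their deviations (r = 0.04 over genes, which are not replicates). With the replicate block 18 genes were called lower, the same 18 genes, and of the named genes only his-37 changed sides of the threshold.

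The median of all genes was 0.12 with library totals and -0.11 with equal library medians, against 0.02, and class values moved with it. With library totals the medians were -0.83 (core), -0.85 (single-exon core), -1.17 (H4), -0.47 (H1) and -0.0048 (H3.3), and the log2 ratios of sums -0.24 (core), -0.66 (single-exon core), -0.17 (H2B), -0.61 (H3), -0.41 (H4), -0.21 (H1) and -0.11 (H3.3). With equal medians the medians were -1.06 (core), -1.09 (single-exon core), -1.41 (H4), -0.71 (H1) and -0.24 (H3.3), the ratios -0.47 (core), -0.89 (single-exon core), -0.40 (H2B), -0.85 (H3), -0.64 (H4), -0.44 (H1) and -0.34 (H3.3), and 1 S-phase gene was called lower. With upper quartile scaling the medians were -0.88 (single-exon core), -1.20 (H4) and -0.030 (H3.3), the ratios -0.68 (single-exon core), -0.19 (H2B), -0.23 (H1) and -0.14 (H3.3). With expression-dependent offsets the medians were -1.10 (core), -1.15 (single-exon core), -0.84 (H2A), -1.08 (H3), -1.42 (H4), -0.46 (H1) and -0.040 (H3.3). With limma on FPKM they were -0.78 (core), -0.84 (single-exon core), -1.001 (H4), -0.45 (H1) and -0.011 (H3.3). Without a filter they were -0.81 (core), -0.88 (single-exon core), -0.47 (H2B) and -1.12 (H4), and with at least 10 counts in every library -0.72 (core), -0.88 (single-exon core), -0.32 (H2A), -0.58 (H2B) and -0.95 (H4), where fewer of the rare copies entered. Without its most abundant gene the ratio was -0.46 (core), -0.66 (H2A), -0.68 (H2B), -0.94 (H3), -1.05 (H4) and -0.58 (H1).

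With 1 library left out the medians ranged from -1.01 to -0.83 (core), -1.08 to -0.96 (single-exon core), -0.76 to -0.50 (H2A), -0.85 to -0.66 (H2B), -1.07 to -0.71 (H3), -1.32 to -1.04 (H4), -0.60 to -0.56 (H1) and -0.20 to -0.030 (H3.3). The ratios ranged from -0.43 to -0.25 (core), -0.78 to -0.74 (single-exon core), -0.40 without GNC replicate 1 to -0.10 without GNC replicate 2 (H2A), -0.32 to -0.22 (H2B), -0.80 to -0.63 (H3), -0.59 to -0.43 (H4), -0.34 to -0.28 (H1) and -0.27 to -0.15 (H3.3), and 0 to 1 genes of the histone handling and S-phase lists were called lower.

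The signs that turned belong to genes that did not pass the test: his-71 (-0.092 to 0.028 with 1 library left out, 0.048 with upper quartile scaling, 0.073 with library totals, 0.035 with offsets, 0.0017 without a filter and 0.071 with limma on FPKM), his-35 (0.028 with offsets, 0.075 without GNC replicate 2), his-41 (-0.0094 with equal medians), and, with 1 library left out, his-25 (-0.42 to 0.029), his-42 (-0.12 to 0.62, and -0.029 without GNC replicate 1) and his-69 (-0.31 to 0.078). Without a filter hil-1, hil-2, hil-3, hil-7, his-1, his-17, his-29, his-31, his-34, his-59, his-60, his-62, his-72 and his-74 were no longer under an FDR of 0.05. The causes were not tested. The depth limits the precision of the rare copies.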
